A study of Mus musculus with 24 samples.

Results

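C2C12 myotubes kept for 72 h in medium with 100 µM dexamethasone were compared with C2C12 myotubes kept for 72 h in vehicle medium. Libraries were chosen by their labels alone, and the comparison uses 8 of the 24 libraries of the series, 4 in each group. All genes that reached a testable level were included, which left 16257 of the 48544 genes listed, and 21233 of the listed genes were at 0 TPM in all 8 libraries. C2C12 is an established, clonal line of mouse myoblasts, the precursors of muscle fibres, which leave the cell cycle and fuse into multinucleated myotubes when serum is lowered. All 8 cultures had first been kept for 7 days in differentiation medium with 2% fetal bovine serum, and both groups were collected at day 10. Both groups carry the wild-type genotype, and both media were high-glucose DMEM with 2% fetal bovine serum and 1% P/S. The vehicle medium held 1% ethanol. The labels name no ethanol in the dexamethasone medium, so an effect of the drug and an effect of lacking ethanol cannot be told apart. Day 0 myoblasts grown in 10% serum, day 7 myotubes, and myotubes kept for 24 h with dexamethasone or vehicle (4 libraries each, the last 2 groups collected at day 8) serve as points of reference. Polyadenylated RNA was sequenced with a stranded kit. Nothing in the labels tells if the 4 replicates of a group were grown apart, and the p-values below cover the spread among libraries alone, which could be purely technical.

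Dexamethasone is a synthetic glucocorticoid. It binds the glucocorticoid receptor, a steroid-activated transcription factor that moves to the nucleus, switches on genes such as Fkbp5 and Per1 directly, and restrains others, including many inflammatory genes. In skeletal muscle, glucocorticoids are known for causing atrophy: they raise muscle ubiquitin ligases such as Fbxo32 (atrogin-1) and Trim63 (MuRF1), which mark proteins for breakdown, and they lower growth signals such as those of insulin-like growth factor 1. Cultures of C2C12 myotubes also hold cells that did not fuse. In RNA from a whole culture, fewer cells of a type and less RNA per cell cannot be told apart.

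Levels are given as TPM, a length-scaled abundance, in the order of replicates 1 to 4 or as mean ± SD (n = 4), and a fold is the ratio of mean TPM. Adjusted p-values are Benjamini-Hochberg values from limma over all genes tested, on the log2 table that the authors deposited, and "rose" and "fell" are used where this value was under 0.05. Both groups expressed markers of myotubes. Myog, the transcription factor of terminal muscle differentiation, was at 768, 1561, 1043 and 1266 TPM with dexamethasone and at 1117, 1429, 1076 and 1400 with vehicle, against 66.2 in day 0 myoblasts (adjusted p = 0.595). Acta1, skeletal muscle alpha-actin, was at 7583 ± 1273 and 6327 ± 1528 TPM (adjusted p = 0.193, 0.0138 after quantile normalization and 0.0441 without vehicle replicate 3), against 87.9 in myoblasts. Neither Myog nor Acta1 passed the test between the groups, and their libraries overlapped. Myh3, embryonic myosin heavy chain and another marker of myotubes, fell, at 76.8 ± 7.39 against 128 ± 15.3 TPM (adjusted p = 0.00601). Its libraries did not overlap, and day 0 myoblasts were at 8.69 TPM.

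The replicate 1 libraries of both groups stood apart, each in the direction of the other group. Among 10 genes with a mean under 0.5 TPM in the other vehicle libraries and at least 5 TPM with dexamethasone, vehicle replicate 1 held a median of 13.3% of the level of dexamethasone replicate 1. For vehicle replicates 2, 3 and 4 the genes were chosen anew and without replicate 1 (16, 15 and 12 genes), and the medians were 1.09%, 0.57% and 0.48%. The lower quartile for vehicle replicate 1 was 11.4%, and the highest upper quartile of the others was 8.48%, in replicate 2. In the other direction, dexamethasone replicate 1 held a median of 19.1% of the level of vehicle replicate 1 over 11 genes. The medians were 0.715%, 5.09% and 1.05% in dexamethasone replicates 2, 3 and 4, over 13, 21 and 16 genes chosen in the same way. The lower quartile for dexamethasone replicate 1 was 16.4%, and the highest upper quartile of the others was 9.49%, in replicate 3. Results are therefore also given without both of these libraries, written below as "without replicate 1". Where folds with and without them share 1 adjusted p-value, it is from the fit with all libraries. Between 12701 and 13030 genes per library reached 1 TPM, and the sequencing depth is unknown.

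With all 8 libraries, 2466 genes rose with dexamethasone (15.2% of those tested) and 2465 fell (15.2%), together 4931 (30.3%). Without replicate 1 the counts were 2452 higher (15.1%) and 2546 lower (15.7%), together 4998 (30.7%), and 4423 genes were called in the same direction both times. Among the called genes that reached 5 TPM in the higher group, 377 rose and 459 fell at least 2-fold, counting a lower mean under 0.5 TPM as 0.5, and 31 rose and 28 fell at least 10-fold. The 4 libraries of each group did not overlap in TPM for 3762 genes (23.1%), with dexamethasone higher for 10.2% of genes and vehicle for 12.9%. In the fit with the replicate number as a block, 2709 genes rose (16.7%) and 2724 fell (16.8%), together 5433 (33.4%). When the test was run on log2(TPM + 0.1) in place of the authors' log2 values, 1752 of 15250 genes rose (11.5%) and 2304 fell (15.1%), together 4056 (26.6%), so that 43.2% of the calls were rises against 50% before.

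**Figure D1:**
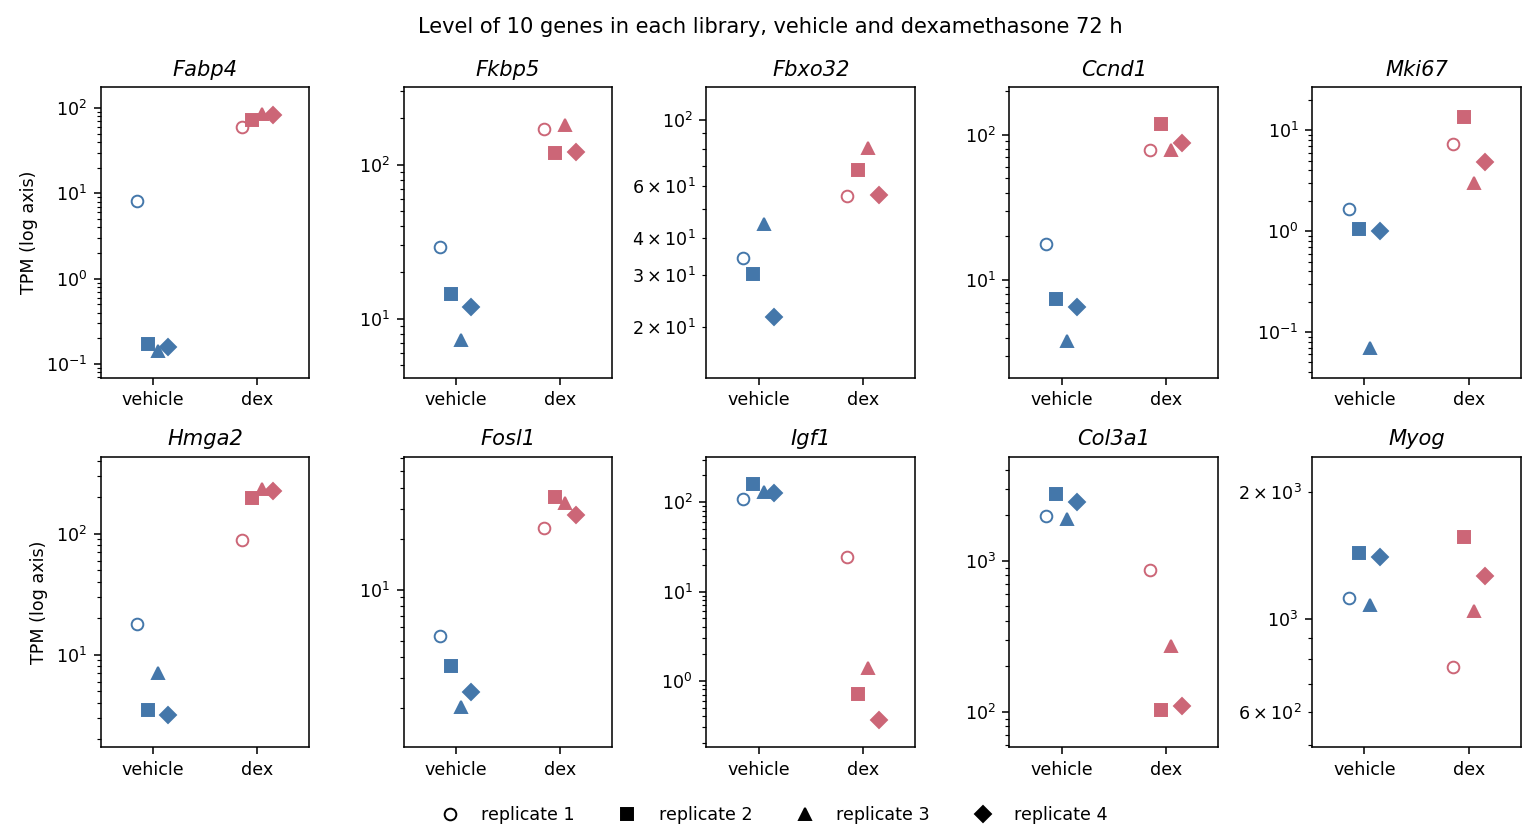
TPM (log axis) of 10 genes in the 4 dexamethasone and 4 vehicle libraries of 72 h, each point 1 library and the open circle replicate 1. Vehicle replicate 1 lies nearest to the dexamethasone group for Fabp4 and dexamethasone replicate 1 nearest to vehicle for Igf1 and Col3a1, while Myog overlaps between groups.

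Among the largest rises was that of S100a8, which encodes a calcium-binding protein best known from myeloid cells. It stood at 14.4, 27.2, 26.1 and 25 TPM with dexamethasone and at 1.87, 0, 0.127 and 0.276 with vehicle, so the groups did not overlap, and its mean rose 40.8-fold (adjusted p = 2.07e-08). Fabp4, the fatty acid-binding protein of adipocytes and a lipid carrier, was at 59.3, 72.7, 84.8 and 83.9 TPM against 8.14, 0.17, 0.143 and 0.157, a 34.9-fold rise (adjusted p = 1.45e-07). In both genes vehicle replicate 1 was the only vehicle library above 1 TPM, and without it the vehicle means were too near 0 for a fold. Hmga2, an architectural chromatin protein abundant in embryonic and proliferating cells, was at 88.5, 198, 232 and 227 TPM against 17.8, 3.52, 7.09 and 3.19. Its fold was 23.6 with all libraries (adjusted p = 8.1e-08) and 47.6 without replicate 1 (adjusted p = 5.63e-10), and its mean with dexamethasone lay above the 97.9 TPM of day 0 myoblasts.

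Protease inhibitors and a few surface proteins were among the other large rises. Serpinb2, plasminogen activator inhibitor 2, was at 31.8, 23.5, 6.94 and 12.9 TPM with dexamethasone against 3.48, 0.0956, 0.0396 and 0.0873 with vehicle (20.3-fold, adjusted p = 3.38e-06, with means of 14.5 and 0.0742 TPM without replicate 1), and it stood at 0.0408 TPM after 24 h of dexamethasone. Serpina3n, an acute-phase inhibitor of serine proteases, was at 200, 35.5, 231 and 40.6 TPM against 25.3, 0.0757, 0.0279 and 0.114 (19.8-fold, adjusted p = 2.86e-05, with means of 102 and 0.0727 TPM without replicate 1). Its dexamethasone libraries split into a high pair, replicates 1 and 3, and a lower pair, replicates 2 and 4, and none overlapped with vehicle. Havcr2 (TIM-3), a surface receptor known from immune cells, was at 5.45, 11.8, 6.5 and 7.13 against 0.965, 0.254, 0.252 and 0.14 TPM (adjusted p = 2.13e-07). Slco4a1, an organic anion transporter, was at 2.29, 6.99, 12.2 and 8.24 against 0.319, 0.0246, 0.0436 and 0.0164 TPM (adjusted p = 5.83e-07). The remaining genes of the 12 largest rises were Prl2c2, Prl2c3, Ifi207, Lce1g and Ctla2a, all members of families of close paralogs between which the authors' counting could have split reads, so their single values are uncertain. Of these, Ctla2a, a cathepsin inhibitor, was the most abundant, at 1377, 367, 1435 and 474 TPM against 170, 22.8, 19.1 and 23.5 (15.5-fold, and 34.8-fold without replicate 1).

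The largest falls were those of secreted proteins. Adamts16, a secreted metalloproteinase, was at 3.4, 0.148, 0.17 and 0.101 TPM with dexamethasone and at 21.6, 56.7, 37.7 and 45.6 with vehicle, 42.3-fold lower (adjusted p = 2.22e-07). Without replicate 1 its means were 0.14 and 46.7 TPM, and the lower one was too near 0 for a fold. Igfbp4, a binding protein that holds insulin-like growth factors, was at 13.8, 0.876, 0.709 and 0.455 TPM against 66.1, 223, 198 and 164. This is 41.2-fold lower with all libraries (adjusted p = 6.94e-07) and 287-fold lower without replicate 1 (adjusted p = 2.1e-09). Cxcl14, a chemokine, was at 14.1, 0.213, 0.785 and 0.274 TPM against 73.8, 155, 53.4 and 148 (28-fold lower, adjusted p = 1.37e-06, with means of 0.424 and 119 TPM without replicate 1). In these 3 genes dexamethasone replicate 1 was the highest library of its group, and it still lay below every vehicle library.

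Further large falls were in genes of signalling and matrix. Nos1, the neuronal nitric oxide synthase of the muscle membrane, was at 1.66, 1.11, 1.68 and 0.912 TPM with dexamethasone against 8.56, 47, 40 and 34.6 with vehicle (24.3-fold lower, adjusted p = 0.000317). Lgr5, a receptor for R-spondins in Wnt signalling, was at 1.37, 0.219, 0.552 and 0.265 against 6.43, 20.5, 10.9 and 16.8 TPM (22.7-fold lower, adjusted p = 9.21e-07, with means of 0.345 and 16.1 TPM without replicate 1). Cilp, a matrix protein first described in cartilage, was at 20.9, 2.81, 15.6 and 2.29 against 94.8, 322, 204 and 183 TPM. It was 19.3-fold lower (adjusted p = 0.000115) and 34.3-fold lower without replicate 1 (adjusted p = 7.44e-05). Mmp7, the metalloproteinase matrilysin, was at 0.558, 0.0176, 0.144 and 0 against 0.674, 20.6, 8.33 and 21.7 TPM, where vehicle replicate 1 lay close to dexamethasone replicate 1 although the groups did not overlap (adjusted p = 0.00299). The list is completed by Timp3, Igf1, Unc93a2, Insc and Megf6. Of these, Insc, a regulator of spindle orientation, was 17.3-fold lower (adjusted p = 1.49e-06) and 42-fold lower without replicate 1 (adjusted p = 1.67e-07).

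Among direct targets and feedback genes of the glucocorticoid receptor, 18 of 29 tested members rose and 3 fell, with a median log2 difference of 0.96 in the authors' table, against 15.2% of all genes in each direction. Without replicate 1 the counts were 18 and 3. Fkbp5, an immunophilin that restrains the receptor, was at 172, 119, 181 and 122 TPM with dexamethasone against 29.2, 14.5, 7.3 and 11.9 with vehicle (9.46-fold, adjusted p = 9.52e-09), and Tsc22d3 (GILZ), a mediator of its anti-inflammatory action, at 466, 490, 466 and 420 against 108, 55.7, 58.1 and 53.6 (6.68-fold, adjusted p = 1.19e-09). Both lay above vehicle in every library. Mt2, a metallothionein that binds zinc and copper, was at 6088, 6074, 7144 and 5098 TPM with dexamethasone and at 1021, 529, 537 and 556 with vehicle (9.24-fold, adjusted p = 3.83e-07). Zbtb16 (PLZF), a zinc finger transcription factor, was at 2.54, 2.54, 3.74 and 2.35 TPM and, with vehicle, at 0.412, 0.00429, 0 and 0, where 3 of the 4 libraries were at or near 0 (adjusted p = 2.73e-07). Mertk, a receptor for apoptotic cells, rose 5.88-fold (adjusted p = 4.24e-06) and Rgs2, which limits G protein signalling, 5.54-fold (adjusted p = 0.00643). Errfi1, a feedback inhibitor of the epidermal growth factor receptor, rose 3.65-fold (adjusted p = 8.56e-07). The members that fell were the growth arrest genes Gadd45b (2.91-fold lower) and Gadd45g (2.2-fold lower) and Pik3r1, a regulatory subunit of PI3 kinase (1.51-fold lower, adjusted p = 0.036). The call for Pik3r1 was lost when any library but dexamethasone replicate 1 or vehicle replicate 3 was left out (adjusted p from 0.0525 to 0.161).

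The response at 72 h was then set against that at 24 h by testing the difference between them. At 24 h, 2143 genes were higher with dexamethasone (13.2%) and 1991 lower (12.2%). The response differed between the times for 1842 genes (11.3%), 904 toward higher at 72 h (5.56%) and 938 toward lower (5.77%). Without replicate 1 it differed for 2466 genes (15.2%), 1050 toward higher and 1416 toward lower, so that 42.6% of the calls were toward higher. On log2(TPM + 0.1) the median of this difference over all genes was −0.124, and 36.2% of the calls were toward higher against 49.1% on the authors' log2 values. Of the glucocorticoid receptor targets, 23 were higher at 24 h, and 11 of 29 had a lower response at 72 h than at 24 h against 1 with a higher one. Leaving out dexamethasone 72 h replicate 2 or replicate 4 brought the count of 11 to 7. Without replicate 1, 12 had a lower response at 72 h and 2 a higher one.

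Among the smallest p-values for a response that was higher at 72 h were those of Sema7a, Fosl1, Ereg, Prkg2 and Map2k3, and the 6 smallest for a lower one were those of Gem, Pdp1, Erv3, Tmem106b, Emb and Stab2. Sema7a, a semaphorin anchored in the membrane, was at 34.1, 34.7, 37 and 26.9 TPM with dexamethasone against 21.9, 15.1, 9.71 and 15.5 with vehicle at 72 h (2.13-fold, adjusted p = 0.000738), after 2.47 against 14.4 at 24 h. Gem, a small GTPase that restrains calcium channels, was at 16.9, 9.81, 14.6 and 9.06 against 14.6, 22, 9.63 and 13.3 TPM at 72 h (adjusted p = 0.526), after 53.6 against 11.1 at 24 h. The change of response was 2.44 for Sema7a (adjusted p = 6.79e-06) and −1.69 for Gem (adjusted p = 3.6e-05).

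Klf15, a transcription factor that drives amino acid breakdown in muscle, had a fold of 30.5 at 24 h and stood at 7.82, 2.26, 8.36 and 2.95 TPM with dexamethasone at 72 h against 1.44, 1.1, 1.65 and 1.23 with vehicle (3.94-fold, adjusted p = 0.00218). The change of its response on the log2 scale was −2.22 (adjusted p = 0.00183). Pdk4, the kinase that shuts off pyruvate dehydrogenase, was at 145, 77.5, 110 and 70 TPM against 40.3, 24.7, 25.9 and 24.3, 3.49-fold higher at 72 h after 13.4-fold at 24 h (change of response −1.31, adjusted p = 0.000986). Glul, glutamine synthetase, was at 355, 218, 301 and 199 TPM against 130, 88.4, 107 and 68.5, 2.72-fold after 6.85-fold at 24 h (change of response −0.87, adjusted p = 0.00331). All of these genes remained above vehicle in every library at 72 h. Ddit4 (REDD1), an inhibitor of mTOR, had a fold of 4.78 at 24 h and did not pass the test at 72 h, at 45.6 ± 16.7 against 31.3 ± 5.09 TPM (adjusted p = 0.0908, and 0.0342 without dexamethasone replicate 4).

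Sgk1, serum- and glucocorticoid-regulated kinase 1, was at 148, 136, 246 and 126 TPM with dexamethasone and at 55.9, 65.9, 75.7 and 51.9 with vehicle. Its mean rose 2.63-fold at 72 h (adjusted p = 1.51e-05) after 6.47-fold at 24 h, and the change of its response was −0.87 on the log2 scale (adjusted p = 0.00453). The palindromic glucocorticoid response element, a pair of inverted TGTTCT sites with a spacer of any 3 bases, searched on both strands, was found in 3 of 32851 RefSeq promoter windows of 250 bases before to 50 after a start site (0.00913%). It was in 1 of the 41 windows of 26 listed receptor targets (2.44%), that of Sgk1, which is shown here because it holds the full element. The window lies at chr10:21993640-21993889 on the plus strand of GRCm38.p6, and the element, in capitals, begins 189 bases before the start site.
Sgk1: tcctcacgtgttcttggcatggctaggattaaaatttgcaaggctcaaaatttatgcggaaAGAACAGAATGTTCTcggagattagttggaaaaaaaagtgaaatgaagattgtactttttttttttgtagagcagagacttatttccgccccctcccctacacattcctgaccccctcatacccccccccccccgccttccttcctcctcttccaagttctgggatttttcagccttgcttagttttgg

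The receptor itself and the enzymes that handle glucocorticoids also differed between the groups. Nr3c1, the glucocorticoid receptor, was at 26.3, 23.2, 24.3 and 20.6 TPM with dexamethasone and at 34.1, 48, 37.1 and 32.3 with vehicle, 1.6-fold lower (adjusted p = 0.000496). Against day 7 myotubes, at 23.7 TPM, the vehicle group was 1.6-fold higher (adjusted p = 0.00603). The dexamethasone group did not pass the test against day 7 (adjusted p = 0.614). Nor did Nr3c1 pass between dexamethasone and vehicle at 24 h (adjusted p = 0.956). Hsd11b1, which regenerates active glucocorticoid from its inert form, was at 70.8, 20.3, 71.4 and 33.5 TPM against 131, 228, 238 and 192, 4.02-fold lower (adjusted p = 2.61e-05). Its level in day 0 myoblasts was 0.495 TPM. Hsd11b2, which inactivates glucocorticoid, was low but higher with dexamethasone, at 1.31 ± 0.348 against 0.434 ± 0.204 TPM (adjusted p = 0.00522). H6pd, which supplies the cofactor of Hsd11b1, rose 1.5-fold, the drug exporter Abcb1b 2.53-fold and the receptor's chaperone Hsp90aa1 1.55-fold. In this list of 17 genes, 6 rose and 3 fell (52.9% called against 30.3% of all genes), and 7 and 3 did so without replicate 1.

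Of 20 ubiquitin ligases and related genes of muscle atrophy, 10 rose and 0 fell, against 15.2% of all genes in each direction. The median log2 difference was 0.25, against 0.006 over all genes. The count of rises was 11 without replicate 1 and 6 without dexamethasone replicate 3. On log2(TPM + 0.1), where 11.5% of all genes rose, it was 6. Fbxo32 (atrogin-1) was at 55.3, 67.7, 80.4 and 55.9 TPM with dexamethasone and at 34.1, 30.2, 44.5 and 21.6 with vehicle, 1.99-fold higher (adjusted p = 0.000444). Every dexamethasone library lay above every vehicle library, but the fold was 4.38 at 24 h and the change of response was −0.72 on the log2 scale (adjusted p = 0.0225, 0.0547 without replicate 1, and 0.0534 to 0.0576 when replicate 4 of dexamethasone or replicate 3 of vehicle was left out at either time). Trim63 (MuRF1), which ubiquitinates myosin, was at 54.8, 101, 94.2 and 82.2 TPM against 44.9, 40.3, 56.1 and 42.1, where dexamethasone replicate 1 lay within the vehicle range (1.81-fold, adjusted p = 0.000274). Cblb, which targets insulin receptor substrate 1, rose 2.11-fold (adjusted p = 2.73e-07), Asb2 rose 1.68-fold (adjusted p = 0.00848) and Zfand5, a proteasome activator, 1.63-fold (adjusted p = 0.000904) after 3.88-fold at 24 h. Fbxo40, a muscle-specific ligase, did not pass the test (adjusted p = 0.547).

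The FoxO transcription factors and brakes on mTOR did not move one way: 3 of 15 rose and 5 fell (53.3% called against 30.3% of all genes). Without replicate 1 the counts were 1 and 5, and 1 rose on log2(TPM + 0.1). Leaving out dexamethasone replicate 2 brought the rises to 1, and leaving out dexamethasone replicate 4 or vehicle replicate 2 brought the falls to 3. Foxo1 was 1.33-fold lower (adjusted p = 0.0163), a call lost on log2(TPM + 0.1) (adjusted p = 0.051) and without dexamethasone replicate 4 or vehicle replicate 2 (0.0723 and 0.063). Foxo3 was 1.29-fold higher (adjusted p = 0.026, 0.0689 without replicate 1, and 0.0639, 0.0963 and 0.07 when only dexamethasone replicate 2, dexamethasone replicate 3 or vehicle replicate 1 was left out). The mTOR inhibitor Deptor was 1.74-fold higher, while Ddit4l was 2.65-fold lower and Sesn3 1.96-fold lower. Few proteasome subunits passed the test: 2 of 35 rose and 2 fell, 11.4% called against 30.3% of all genes, with 3 and 2 without replicate 1 and 5 rises without dexamethasone replicate 1 alone. Of 34 autophagy and lysosome genes 2 rose and 7 fell (26.5% called), with 0 rises on log2(TPM + 0.1), among them the lysosomal membrane protein Lamp2 (1.43-fold lower) and the lysosomal regulator Tfeb (1.4-fold lower).

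**Figure D2:**
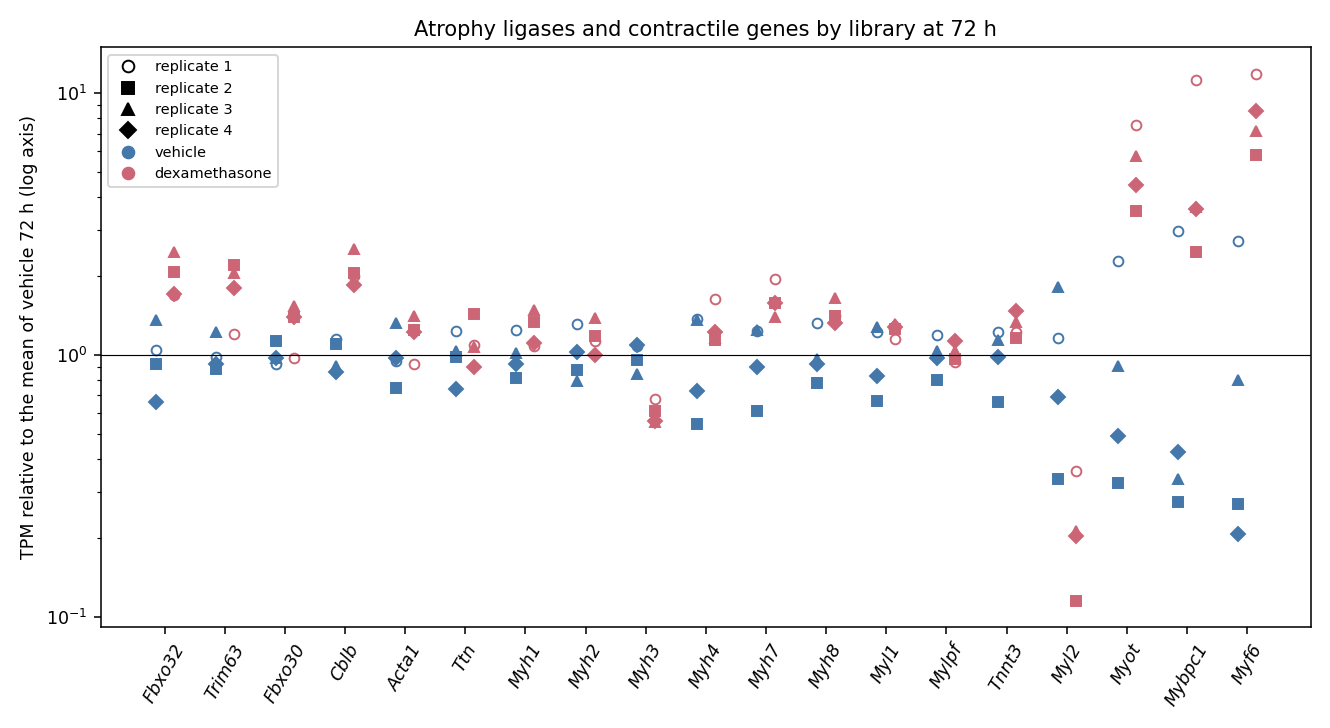
TPM of 19 atrophy and contractile genes in each library, relative to the gene's vehicle mean (log axis), with vehicle in blue and dexamethasone in red. Every dexamethasone library lies above every vehicle library for Fbxo32, Myot and Myf6 and below for Myh3, while Acta1 and Mylpf overlap.

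Of 12 myosin heavy chains 1 rose and 1 fell with all libraries (16.7% called against 30.3% of all genes), and 3 and 1 did so without replicate 1 and also in the fit with the replicate number as a block. Leaving out vehicle replicate 1 alone brought the rises to 5, and on log2(TPM + 0.1) none rose. Myh3, the embryonic heavy chain, was at 86.9, 77.9, 70.9 and 71.7 TPM with dexamethasone and at 139, 122, 108 and 140 with vehicle, with no overlap (1.66-fold lower, adjusted p = 0.00601). Myh8, the perinatal heavy chain, was 1.45-fold higher at an adjusted p of 0.0497 that was lost on log2(TPM + 0.1) (0.188) and when any 1 library but vehicle replicate 1 was left out (0.0727 to 0.166). The adult fast chain Myh1 was at 447, 553, 617 and 461 against 516, 339, 422 and 383 TPM (adjusted p = 0.134, 0.0375 without replicate 1 and 0.0437 without vehicle replicate 1 alone). Adjusted p-values were 0.251 for Myh2, 0.372 for Myh4 and 0.0564 for the slow chain Myh7, which passed with the replicate block (adjusted p = 0.00988) and without vehicle replicate 1 or 3 (0.039 and 0.044).

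Of 18 other thick filament, titin and M-band genes 5 rose and 2 fell (38.9% called against 30.3% of all genes), with 2 rises when any of dexamethasone replicates 2, 3 and 4 or vehicle replicates 2 and 4 was left out, and 2 on log2(TPM + 0.1), and with 1 fall without replicate 1. Mybpc1, slow myosin-binding protein C, rose 5.24-fold (9.43-fold without replicate 1) with overlapping libraries (adjusted p = 0.00253), and Mylk2, the skeletal myosin light chain kinase, rose 1.73-fold (adjusted p = 0.000935). Myl2, the slow regulatory light chain, fell from 42, 12.2, 65.9 and 24.9 TPM with vehicle to 13, 4.16, 7.69 and 7.38, where vehicle replicate 2 lay within the dexamethasone range (4.5-fold lower, adjusted p = 0.00146). Of 35 thin filament and Z-disc genes 7 rose and 1 fell (22.9% called against 30.3% of all genes), 11 and 0 without replicate 1, 12 and 1 with the replicate block, and 12 rose without vehicle replicate 1 alone. Myot, which crosslinks actin at the Z-disc, was at 57, 26.8, 43.3 and 33.5 TPM against 17.2, 2.45, 6.84 and 3.69 (5.31-fold and 7.97-fold without replicate 1, adjusted p = 0.000226), with every dexamethasone library above every vehicle library. Tpm3, slow tropomyosin, rose 1.88-fold (adjusted p = 0.00242), Tnnt2, the embryonic and cardiac troponin T, 1.8-fold (adjusted p = 3.68e-05) and Ldb3, a Z-disc scaffold, 1.56-fold (adjusted p = 0.00522).

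Of 27 excitation-contraction coupling genes 8 rose and 1 fell, 33.3% called and so near the 30.3% of all genes. Without replicate 1 10 rose and 1 fell, and 5 rose on log2(TPM + 0.1) or when vehicle replicate 2 or 4 was left out. Atp2a1, the fast calcium pump of the sarcoplasmic reticulum, was at 1061, 887, 898 and 846 TPM against 620, 270, 442 and 361, 2.18-fold higher (adjusted p = 0.000993). Its slow counterpart Atp2a2 rose 1.49-fold (adjusted p = 0.00802), whereas Pvalb, a calcium buffer of fast fibres, was 2.64-fold lower (adjusted p = 0.00159). At the neuromuscular junction, 3 of 19 genes rose and 5 fell (42.1% called). The rises numbered 5 without dexamethasone replicate 1 and 1 on log2(TPM + 0.1) or without dexamethasone replicate 2 or 4. Lrp4, the agrin receptor, was 2.38-fold lower (adjusted p = 8.91e-06), Agrn, its ligand, 1.99-fold lower (adjusted p = 1.56e-05) and Rapsn, which clusters acetylcholine receptors, 1.37-fold lower (adjusted p = 0.00884).

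The 4 myogenic regulatory factors, which set and maintain muscle identity, did not move together. Myf6 (MRF4) was at 22.4, 11, 13.5 and 16.2 TPM with dexamethasone and at 5.14, 0.51, 1.51 and 0.39 with vehicle, 8.36-fold higher and 16.9-fold without replicate 1 (adjusted p = 0.000151). Myf5 was at 69, 50.8, 75.1 and 64.4 TPM against 17.6, 7.58, 10.4 and 7.49, 6.01-fold higher (adjusted p = 1.14e-06). Neither gene overlapped between the groups. Myod1 was at 122 ± 17.1 against 142 ± 14.7 TPM (adjusted p = 0.199) and, with Myog, did not pass the test. Over the 19 myogenic regulators 5 rose and 2 fell, 36.8% called and so near the 30.3% of all genes. On log2(TPM + 0.1) 3 rose and 1 fell, and 3 rose when dexamethasone replicate 2 or 3 or vehicle replicate 4 was left out.

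Of 19 markers of satellite cells, the stem cells of muscle, and of unfused reserve cells, 10 fell and 3 rose, against 15.2% of all genes in each direction, with 6 falls without dexamethasone replicate 4. Pax7, the defining factor of satellite cells, was low throughout, at 1.66, 0.754, 0.827 and 0.37 TPM with dexamethasone and 2.21, 3.75, 2.13 and 1.78 with vehicle, where dexamethasone replicate 1 lay below the vehicle range by a narrow margin (2.73-fold lower, adjusted p = 0.000807). Heyl, a Notch effector, was 6.54-fold lower, 10.7-fold without replicate 1 (adjusted p = 3.95e-06) and Vcam1, an adhesion receptor, 2.02-fold lower (adjusted p = 0.0204). The call for Vcam1 was lost without dexamethasone replicate 3 or 4 or vehicle replicate 1 (adjusted p = 0.0766, 0.0547 and 0.0844). The members that rose were Myf5, Sdc4, a heparan sulfate receptor (2.13-fold, adjusted p = 4.24e-06), and Id1, an inhibitor of myogenic factors (2.02-fold, adjusted p = 0.000218). Of 17 fusion and adhesion genes 2 rose and 5 fell (41.2% called against 30.3% of all genes), and 1 and 3 without replicate 1. The falls numbered 2 without dexamethasone replicate 4 and 3 without dexamethasone replicate 1 or 2 or vehicle replicate 2 or 4.

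Cell cycle genes rose. All 46 of 46 tested genes of mitosis and cytokinesis rose, against 15.2% of all genes, with a median log2 difference of 1.8 and of 1.91 without replicate 1. The count stayed at 46 without replicate 1, on log2(TPM + 0.1), with the replicate block, and when any 1 library was left out. The summed TPM of the list was 668, 1314, 369 and 581 with dexamethasone and 193, 161, 62.1 and 156 with vehicle, so replicate 2 was the highest dexamethasone library and replicate 3 the lowest vehicle library. Of 40 genes of DNA replication 38 rose and 0 fell (median 1.02), and Rfc3 and Orc6 did not pass the test. Of 17 G1 cyclins, kinases and E2F factors 11 rose and 0 fell. 37 and 10 of these rose without replicate 1.

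**Figure D3:**
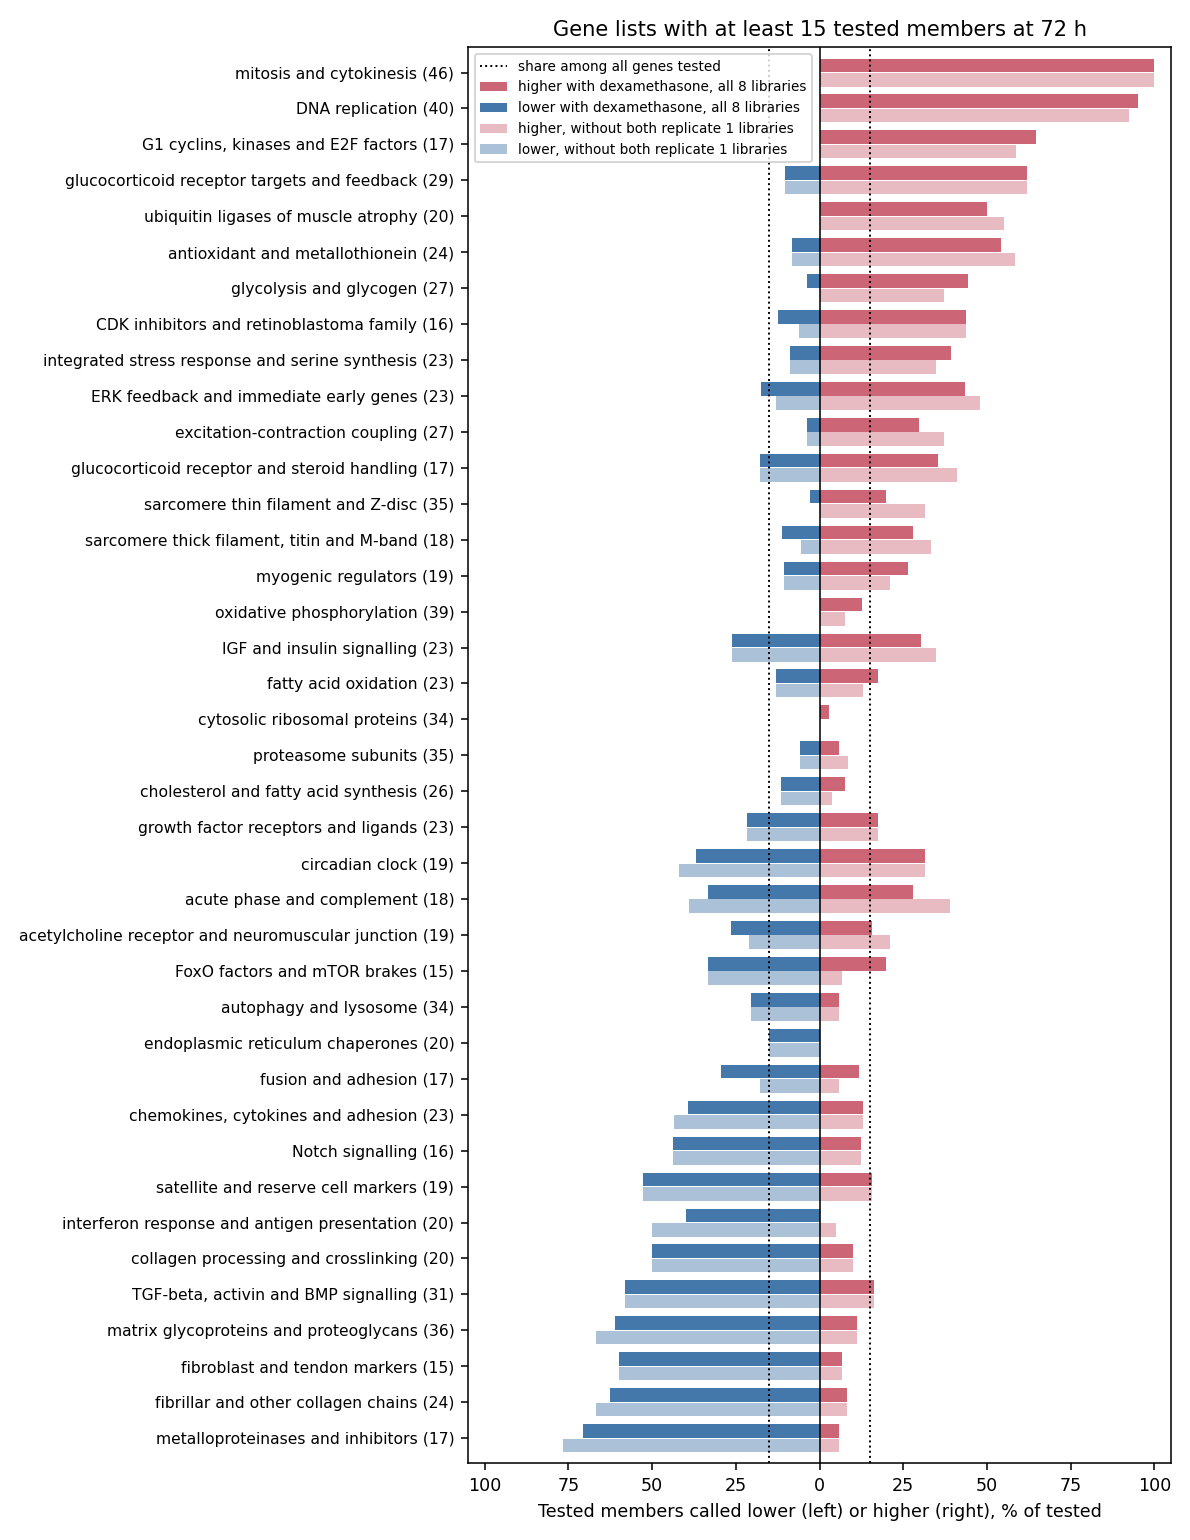
Percent of the tested members of each gene list that were higher or lower with dexamethasone at 72 h (adjusted p under 0.05), with all libraries and without replicate 1, and dotted lines at the share among all genes. Mitosis and DNA replication lie farthest to the higher side, and metalloproteinases and collagen chains farthest to the lower side, among the 39 lists drawn.

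Of the G1 cyclins, which commit cells to divide, Ccnd1 was at 78.8, 119, 78 and 88 TPM with dexamethasone against 17.6, 7.45, 3.79 and 6.52 with vehicle, 16.1-fold higher without replicate 1 against 10.3-fold with it (adjusted p = 9.59e-06). Ccne1 was at 10.4, 17.1, 6.48 and 13.1 against 3.6, 3.3, 2.15 and 3.37 TPM (3.79-fold, adjusted p = 2.29e-05). In both genes all dexamethasone libraries lay above all vehicle libraries. Ccnd2 and Ccnd3 did not pass the test (adjusted p = 0.0592 and 0.0872, and 0.00853 and 0.00852 with the replicate block), nor did the kinases Cdk4 and Cdk2 (0.995 and 0.0885, the latter 0.0307 and 0.044 without dexamethasone replicate 1 or 3). Myc, which drives growth and the entry into the cycle, was at 38.3, 40.2, 49.1 and 39.3 TPM against 17.2, 24.3, 16.7 and 23.5 (2.04-fold, adjusted p = 6.23e-06).

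In DNA replication, Mcm6, a subunit of the replicative helicase, was at 27.8, 46.7, 21.3 and 37.6 TPM with dexamethasone against 10.6, 10.5, 7.88 and 11.2 with vehicle, a 3.32-fold rise (adjusted p = 1.48e-05), while day 7 myotubes were at 13.2 and day 0 myoblasts at 95. Uhrf1, which copies DNA methylation, rose 9.67-fold (adjusted p = 2.15e-05), Chaf1b, a histone chaperone, 8.69-fold (adjusted p = 3.03e-05) and Tk1, thymidine kinase, 8.13-fold (adjusted p = 0.000464). Rrm2, the ribonucleotide reductase subunit that makes deoxynucleotides, was at 221, 371, 228 and 261 against 80.1, 96.7, 71.4 and 98.1 TPM, 3.12-fold higher (adjusted p = 7.05e-07). All of these lay above vehicle in every library.

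In mitosis, Cdk1, the kinase that starts it, was at 78, 138, 39.5 and 65.9 TPM against 23.2, 15.5, 8.58 and 15.6, 5.12-fold higher (adjusted p = 8.95e-05), with 55.1 in day 7 myotubes and 375 in day 0 myoblasts. Top2a, the topoisomerase that untangles chromosomes, was at 31.6, 67.8, 17.5 and 30.2 TPM against 7.74, 5.93, 0.665 and 7.14 (6.85-fold, adjusted p = 0.000396). Foxm1, the transcription factor of mitotic genes, was at 12.2, 18.7, 6.03 and 9.51 TPM against 2.2, 1.52, 0.548 and 1.19 (8.52-fold, adjusted p = 2.69e-05). In each of them dexamethasone replicate 2 was the highest library and vehicle replicate 3 the lowest, and the groups did not overlap. Mki67, the proliferation marker, had dexamethasone libraries at 7.29, 13.7, 3.03 and 4.88 and vehicle libraries at 1.65, 1.04, 0.0688 and 0.996 TPM.

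Promoters of these lists were searched for the elements that E2F factors and the mitotic repressor complexes are known to bind. The E2F sequence TTTGGCGC, on either strand, was in 5 of 37 RefSeq windows of 32 DNA replication genes (13.5%), in 0.514% of all 32851 windows and in 0.884% of the windows of the genes tested. The E2F sequence TTTCCCGC was in 6 of the 37 (16.2%), in 1.07% of all windows and in 1.83% of those of the genes tested. The cell cycle homology region (CHR) TTTGAA was in 31 of 41 windows of 39 mitosis genes (75.6%), in 17.9% of all windows and in 12.3% of the windows of the genes tested. The 250 bases before the start sites of Mcm6 and Cdk1 are shown as an example of each kind, with the matches in capitals. The Mcm6 window lies at chr1:128359706-128359955 and the Cdk1 window at chr10:69352913-69353162, both on the minus strand of GRCm38.p6 and written 5′ to 3′ along the gene. The Mcm6 matches begin 110 and 47 bases before the start site and the Cdk1 matches 71 and 15 bases before it.
Mcm6: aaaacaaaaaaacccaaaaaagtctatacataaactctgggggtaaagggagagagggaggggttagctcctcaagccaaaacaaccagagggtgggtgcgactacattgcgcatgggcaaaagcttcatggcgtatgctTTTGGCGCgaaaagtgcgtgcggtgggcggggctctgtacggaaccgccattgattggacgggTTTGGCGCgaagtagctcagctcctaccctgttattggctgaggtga
Cdk1: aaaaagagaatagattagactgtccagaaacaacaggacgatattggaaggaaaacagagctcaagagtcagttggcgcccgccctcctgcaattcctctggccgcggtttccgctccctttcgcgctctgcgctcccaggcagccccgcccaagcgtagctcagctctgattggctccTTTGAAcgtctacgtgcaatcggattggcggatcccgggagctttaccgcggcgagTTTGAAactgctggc

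Setting these genes against the other times shows where the vehicle group stood. The comparisons with day 7 use the same vehicle or dexamethasone libraries as the main comparison and are given as values side by side. Between day 7 and day 10 in vehicle, 1426 genes rose (8.77%) and 1678 fell (10.3%), and on log2(TPM + 0.1) the median over all genes was 0.109 and 61.2% of the calls were rises, against 45.9%. Genes of mitosis were among those that fell: 45 of 46 were lower in vehicle at 72 h than in day 7 myotubes (median log2 difference −1.4), and 27 without vehicle replicate 3. DNA replication genes were lower for 24 of 40, 8 without day 7 replicate 1 and 5 without vehicle replicate 3. Between day 7 and dexamethasone at 72 h, 3874 genes rose (23.8%) and 3887 fell (23.9%). Of the mitosis list 5 rose and 0 fell, with 1 to 9 rises as single libraries were left out, and of the DNA replication list 25 rose and 1 fell. The mean summed TPM of the mitosis list was 536 at day 7 and 4034 in day 0 myoblasts.

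At 24 h, 0 of the 46 mitosis genes were higher and 0 lower with dexamethasone (median −0.42), and none passed on log2(TPM + 0.1) either, where 14% of all genes were higher, 7.61% lower and 21.6% called in all. In limma 3 of them were at an unadjusted p under 0.05, all 3 lower, and 43 of the 46 differences were below 0. The response was higher at 72 h than at 24 h for 45 of 46 mitosis genes, 36 of 40 DNA replication genes and 10 of 17 G1 genes. Among all genes tested this share was 5.56%. Smc4, a condensin subunit, was the mitosis gene whose change of response did not pass the test (adjusted p = 0.149, and 0.036 without dexamethasone 72 h replicate 3). Cyclin-dependent kinase inhibitors, hold myotubes out of the cycle. Of 16 genes of the inhibitor and retinoblastoma families 7 rose and 2 fell at 72 h (56.2% called against 30.3% of all genes). The counts were 4 and 2 on log2(TPM + 0.1), with 1 fall without replicate 1. Cdkn1a (p21), the most abundant of them, was at 1435, 2827, 2322 and 2424 TPM against 1776, 2059, 2042 and 2365 with overlapping libraries (adjusted p = 0.657). Gas1, a growth arrest gene, was 3.93-fold lower, 7.72-fold without replicate 1 (adjusted p = 5.02e-05), and Rbl1 (p107), a retinoblastoma family member of cycling cells, 2.76-fold higher (adjusted p = 5.25e-05).

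**Figure D4:**
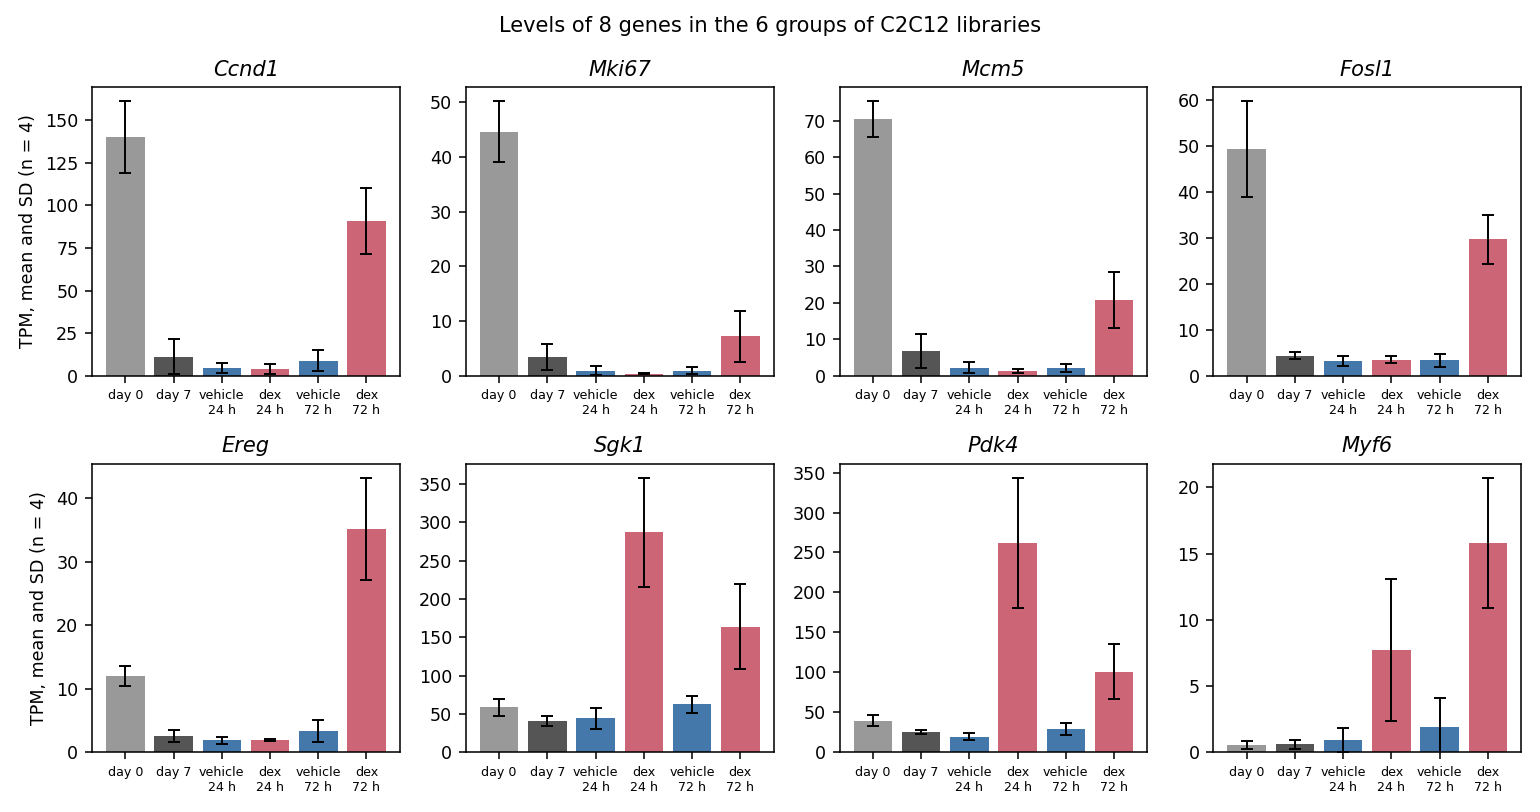
Mean TPM ± SD (n = 4) of 8 genes in the 6 groups of the series. Ccnd1, Mki67 and Mcm5 are high in day 0 myoblasts and higher with dexamethasone than with vehicle at 72 h, whereas Sgk1 and Pdk4 have their largest fold over vehicle at 24 h.

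Genes of growth factor signalling through ERK and AP-1 also differed between the times. Of 23 ERK feedback and immediate early genes 10 rose and 4 fell (60.9% called against 30.3% of all genes), the falls numbering 2 without vehicle replicate 2 or 4. The response was higher at 72 h than at 24 h for 10 and lower for 0, against 5.56% and 5.77% of all genes. Fosl1 (Fra-1), an AP-1 subunit raised by sustained ERK signalling, was at 23.2, 35.2, 32.4 and 27.8 TPM with dexamethasone and at 5.34, 3.56, 2.03 and 2.5 with vehicle (8.84-fold, adjusted p = 5.74e-09), after a fold of 1.08 at 24 h. Dusp6, the phosphatase that switches off ERK, was at 34.1, 56.8, 59.3 and 51 TPM against 23.3, 17, 17.5 and 16.9 (2.7-fold, adjusted p = 1.56e-05). The groups did not overlap in either gene. Spry4, a feedback inhibitor, rose 2.39-fold (adjusted p = 4.35e-05), Etv4, an ETS factor downstream of ERK, 3.07-fold (adjusted p = 1.72e-05) and Dusp5 2.17-fold (adjusted p = 4.93e-06). The members that fell were Egr2 (2.14-fold lower), Fosl2 (1.71-fold), Junb (1.52-fold, adjusted p = 0.0193) and Egr3 (1.48-fold, adjusted p = 0.0307), which encode transcription factors of the early response. Junb was lost without replicate 2 or 4 of either group (adjusted p from 0.0526 to 0.071), and Egr3 without replicate 1 (0.125), on log2(TPM + 0.1) (0.0698) and without 1 of 4 single libraries, dexamethasone replicates 1 and 3 and vehicle replicates 2 and 4 (0.0501 to 0.13).

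Among ligands of the epidermal growth factor receptor, Ereg and Areg rose while the receptor fell. Ereg, epiregulin, was at 26.6, 38.3, 44.9 and 31 TPM against 5.99, 2.96, 2.13 and 2.5, 10.4-fold higher (adjusted p = 9.52e-09), and above the 12 TPM of day 0 myoblasts. Areg, amphiregulin, was at 6.61, 12.9, 8.29 and 11.1 against 2.84, 1.81, 2.91 and 2.91 TPM (3.71-fold, adjusted p = 5.51e-06), again without overlap, whereas Hbegf did not pass the test, at 21.5 ± 2.88 against 21.7 ± 5.57 TPM (adjusted p = 0.901). Egfr, their receptor, was 2.41-fold lower (adjusted p = 0.000127), as were Pdgfrb, a platelet-derived growth factor receptor (2.93-fold, adjusted p = 2.54e-05), and the ligand Pdgfc (2.33-fold, 3.56-fold without replicate 1, adjusted p = 0.00393). Over the 23 growth factor receptors and ligands tested, 4 rose and 5 fell, 39.1% called against 30.3% of all genes.

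Plasminogen activation is a cell-surface proteolysis that accompanies migration. Of 12 genes tested, Serpinb2 included, 6 rose and 3 fell (75% called against 30.3% of all genes), with 5 falls without dexamethasone replicate 1 or with the replicate block. Plaur, the urokinase receptor, was at 13.1, 26.2, 14.7 and 21.5 TPM against 3.21, 1.81, 1.55 and 2.57 (8.24-fold, adjusted p = 4.65e-07). Every dexamethasone library lay above every vehicle library for Plaur, whereas Plat, tissue plasminogen activator, was 4.02-fold lower, 6.54-fold without replicate 1 (adjusted p = 0.000136). Of 10 Hmga and oncofetal RNA-binding genes, which are high in embryonic tissue, 7 rose and 0 fell (70% called). Hmga1, a relative of Hmga2, was at 32.4, 77.4, 55.3 and 81.3 TPM against 8.18, 5.41, 8.22 and 6.19 (8.8-fold, adjusted p = 3.35e-08), after 1.18-fold at 24 h and with 103 in day 0 myoblasts.

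Of 24 collagen chains 15 fell and 2 rose (median log2 difference −1.4, and −1.75 without replicate 1), against 15.2% of all genes in each direction. Col1a2, a chain of type I collagen, was at 290, 39.3, 53.2 and 28.5 TPM with dexamethasone and at 562, 691, 344 and 605 with vehicle, 5.36-fold lower and 13.6-fold lower without replicate 1 (adjusted p = 2.86e-05). Dexamethasone replicate 1 lay apart from the other 3, just under the lowest vehicle library. Col1a1, the other chain of type I collagen, was at 109, 6.93, 14.6 and 5.95 TPM against 267, 262, 113 and 272, and Col3a1, type III collagen, at 867, 103, 273 and 110 against 1973, 2762, 1879 and 2450 (6.68-fold and 6.7-fold lower, 23.5-fold and 14.6-fold without replicate 1, adjusted p = 6.02e-05 and 2.34e-06). Col12a1, which coats collagen fibrils, was 4.22-fold lower and 11.9-fold without replicate 1 (adjusted p = 0.000237). Col18a1, a basement membrane chain that is the source of endostatin, went the other way, at 24.4, 75.7, 40.4 and 46.3 against 9.82, 16.7, 8.74 and 14 TPM (3.79-fold higher, adjusted p = 3.24e-05). The other chain that rose was Col6a3, at 153, 65.1, 44.1 and 35 against 61.9, 16.1, 4.15 and 12.7 TPM with overlapping libraries (adjusted p = 0.0402). This call was lost on log2(TPM + 0.1) (adjusted p = 0.0514) and when dexamethasone replicate 1 or 2 or vehicle replicate 2, 3 or 4 was left out (0.0747 to 0.15). The basement membrane chains Col4a1 and Col4a2 did not pass the test (adjusted p = 0.611 and 0.984).

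Of 36 matrix glycoproteins and proteoglycans 22 fell and 4 rose (72.2% called against 30.3% of all genes). Fn1, fibronectin, was at 505, 381, 393 and 278 TPM against 1364, 2207, 1971 and 1818, 4.73-fold lower (adjusted p = 7.03e-07) and without overlap. Thbs1, thrombospondin 1, was 6.54-fold lower (adjusted p = 7.05e-07) and Fbn1, fibrillin 1, 7.06-fold, 10.8-fold without replicate 1 (adjusted p = 2.22e-07). Postn, periostin, changed direction with time: it had a fold of 2.34 in favour of dexamethasone at 24 h, and at 72 h it was at 485, 53.4, 313 and 65 TPM against 554, 933, 1115 and 663, with every dexamethasone library under every vehicle library (3.56-fold lower and 6.28-fold without replicate 1, adjusted p = 0.000395). The change of its response was −2.38 on the log2 scale (adjusted p = 0.000856). Basement membrane components were divided: Nid2 was 4.25-fold lower (8.94-fold without replicate 1), while Nid1 was 2.07-fold, Lama2 2.41-fold and Lamc1 1.51-fold higher. Spp1, osteopontin, was abundant and did not pass the test (3940 ± 799 against 2486 ± 951 TPM, adjusted p = 0.135, 0.0345 with the replicate block and 0.0495 without vehicle replicate 1).

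Of 20 collagen processing and crosslinking genes 10 fell and 2 rose (60% called against 30.3% of all genes). Among them were Loxl1, a crosslinking oxidase (2.44-fold lower, adjusted p = 4.39e-06), and Serpinh1, the collagen chaperone (2.14-fold lower, adjusted p = 0.000804). Of 17 metalloproteinases and their inhibitors 12 fell and 1 rose (76.5% called, and 3 rises with the replicate block). Mmp14, a membrane-bound collagenase, was at 190, 65.2, 102 and 61.7 TPM against 369, 554, 302 and 551 (4.24-fold lower, adjusted p = 2.13e-06). Adamts4, an aggrecanase, was at 6.96, 3.25, 2.34 and 2.58 TPM against 24, 60.4, 28.6 and 56.8 (11.2-fold lower and 17.8-fold without replicate 1, adjusted p = 9.44e-07). Both were below vehicle in every library. Timp3, an inhibitor of these enzymes, had dexamethasone libraries at 49.4, 8.7, 12.1 and 10 TPM and vehicle libraries at 205, 538, 196 and 527, while Timp1 did not pass the test (adjusted p = 0.566).

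Of 31 genes of TGF-beta, activin and BMP signalling, which regulates matrix and muscle mass, 18 fell and 5 rose, against 15.2% of all genes in each direction. Among the ligands, Tgfb1 was at 36, 38.2, 38.4 and 33.1 TPM with dexamethasone against 66.2, 78.1, 77.9 and 86.9 (2.12-fold lower, adjusted p = 9.21e-07). Bmp4 was at 25.7, 6.84, 11.4 and 7.34 against 42.7, 98.1, 80.6 and 97.4 TPM (6.22-fold lower and 10.8-fold without replicate 1, adjusted p = 1.69e-06). No library overlapped between groups for either ligand. Inhbb, the activin B subunit, was 3.41-fold lower at 72 h after a fold of 1.72 in favour of dexamethasone at 24 h (change of response −1.83, adjusted p = 0.00125), and Fst, follistatin, which blocks activins and myostatin, 1.98-fold lower after 1.96-fold higher (change of response −1.31, adjusted p = 0.00168). Mstn, myostatin, the inhibitor of muscle growth, was near the floor, at 0.447, 0.0568, 0.0419 and 0.11 TPM against 0.316, 0.101, 0.0523 and 0.0459 (adjusted p = 0.883).

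Of the receptors and effectors, Tgfbr2 was 2.62-fold lower (adjusted p = 0.000273) and Tgfbr1 1.58-fold higher (adjusted p = 0.0012). Smad6, an inhibitor of BMP signalling, was 2.26-fold lower (adjusted p = 0.000633) and Smad3 1.63-fold (adjusted p = 0.000385). Ccn2 (CTGF), a matricellular protein counted with this pathway as a target, went the other way, at 439, 483, 609 and 469 TPM against 203, 146, 144 and 154 (3.1-fold higher, adjusted p = 1.35e-05). Of 16 Notch signalling genes 7 fell and 2 rose (56.2% called against 30.3% of all genes). The ligands Dll1 (2.38-fold lower, adjusted p = 0.000268) and Jag1 (1.98-fold lower, adjusted p = 0.00282) fell while the ligand Jag2 rose (1.98-fold, adjusted p = 5.94e-06).

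Insulin-like growth factors are ligands whose receptors act through substrate proteins. Igf1, the main muscle growth factor of this family, was at 24.2, 0.716, 1.39 and 0.365 TPM with dexamethasone and 110, 159, 132 and 127 with vehicle, so that the fold of 19.8 with all libraries became 169 without replicate 1. Irs1, the substrate of the insulin and IGF receptors, was at 16.6, 13.9, 16.3 and 12 against 27.1, 36.2, 26 and 25.9 TPM (1.96-fold lower, adjusted p = 7.18e-05). Both were below vehicle in every library. Irs2, the second substrate, was 1.6-fold higher (adjusted p = 0.0335, and 0.0985 on log2(TPM + 0.1)), the receptor Igf1r 1.35-fold (adjusted p = 0.0364, and 0.149 on log2(TPM + 0.1)) and Slc2a4 (GLUT4), the insulin-regulated glucose transporter, 2.57-fold (adjusted p = 0.00725). Single libraries moved both receptor-side calls: Irs2 was lost without dexamethasone replicate 2, 3 or 4 or vehicle replicate 1 or 4 (adjusted p from 0.0539 to 0.153), and Igf1r without dexamethasone replicate 2 or 3 or vehicle replicate 1, 2 or 4 (0.0521 to 0.163). Over the 23 genes of this list 7 rose and 6 fell (56.5% called against 30.3% of all genes), with 4 rises on log2(TPM + 0.1) without replicate 1. Igf2, an abundant ligand of these cells, did not pass the test (adjusted p = 0.186, 0.000375 with the replicate block and 0.0477 without vehicle replicate 1).

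Of 23 chemokine, cytokine and adhesion genes 9 fell and 3 rose (52.2% called against 30.3% of all genes). Cxcl12, a chemokine that attracts progenitor cells, was at 59.8, 15.2, 14.3 and 19.8 TPM against 158, 223, 132 and 202 (6.56-fold lower and 11.3-fold without replicate 1, adjusted p = 9.63e-07). Lif, leukaemia inhibitory factor, was 2.71-fold lower (adjusted p = 6.66e-05). Ptgs2 (COX-2), which makes prostaglandins and is known for its suppression by glucocorticoids, was higher at this time, at 10.8, 14.2, 19.8 and 15.3 TPM against 6.35, 7.58, 7.95 and 5.64 (2.18-fold, adjusted p = 0.000405), after a fold of 1.54 in favour of vehicle at 24 h (change of response 1.3, adjusted p = 0.000595). Of 20 interferon response and antigen presentation genes 0 rose and 8 fell (40% called), and 1 and 10 without replicate 1. B2m, the light chain of class I molecules, was at 549, 383, 427 and 374 TPM against 685, 699, 633 and 680 (1.56-fold lower, adjusted p = 0.000592), with no overlap.

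Of 18 acute phase and complement genes 5 rose and 6 fell (61.1% called against 30.3% of all genes). The counts were 7 and 7 without replicate 1, with 3 rises without dexamethasone replicate 1 alone. Orm1, an acute-phase glycoprotein with close paralogs, was at 215, 23.2, 104 and 26.5 TPM against 23.9, 6.08, 4.58 and 3.02, where dexamethasone replicate 2 lay just under vehicle replicate 1 (9.84-fold, adjusted p = 0.000828). Its fold at 24 h was 80.7, and the change of response was −2.48 (adjusted p = 0.0165). Lbp, which binds bacterial lipopolysaccharide, had a fold of 110 at 24 h and did not pass the test at 72 h (adjusted p = 0.0732, 0.0168 without replicate 1, and 0.0156, 0.0357 and 0.0108 without dexamethasone replicate 2, dexamethasone replicate 4 or vehicle replicate 1 alone). In these genes, as in Serpina3n, dexamethasone replicates 1 and 3 were above replicates 2 and 4. This order was not particular to them: Ctla2a, Fkbp5, Klf15, Pdk4 and Glul had it too. Mcm6 and Ccne1 had the reverse order, as did the summed TPM of the DNA replication list (1033, 1595, 869 and 1215). Tsc22d3 had neither order, and the extent of the split over all genes was not counted. Among the members that fell, C1ra, a complement protease, was 4.46-fold lower, 10.7-fold without replicate 1 (adjusted p = 0.000178), its partner C1s1 5.33-fold, 10.1-fold without replicate 1 (adjusted p = 0.000285) and the inhibitor Serping1 3.02-fold (adjusted p = 0.0334). The call for Serping1 was lost when any library but dexamethasone replicate 3 or vehicle replicate 1 was left out (adjusted p from 0.0627 to 0.0907).

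Of 14 tested genes known from adipocytes 8 rose and 0 fell (57.1% called against 30.3% of all genes), with 5 rises on log2(TPM + 0.1) without replicate 1. Plin4, a lipid droplet coat protein, was at 9.83, 6.94, 10.1 and 7.12 TPM with dexamethasone and at 1.54, 0.138, 0.654 and 0.148 with vehicle (13.7-fold, adjusted p = 2.73e-07, with means of 8.06 and 0.313 TPM without replicate 1). Plin2, its counterpart in most cells, was at 118, 264, 249 and 224 TPM against 89.8, 97.6, 100 and 101 (2.2-fold, adjusted p = 0.000293). The fatty acid transporter Cd36 rose 3.19-fold (adjusted p = 0.000372) and Cpt1b, which admits fatty acids to mitochondria, 3.18-fold (adjusted p = 8.15e-06). Pparg, the master regulator of adipocytes, did not pass the test (adjusted p = 0.0956), nor did Lpl, Fasn and Scd1 (0.892, 0.264 and 0.118, the last 0.0372 without vehicle replicate 3). The summed TPM of the adipocyte list was 689, 765, 836 and 742 with dexamethasone and 460, 397, 494 and 400 with vehicle, and the part of adipocyte-like cells in these rises was not tested.

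Of 27 glycolysis and glycogen genes 12 rose and 1 fell (48.1% called against 30.3% of all genes). Pkm, pyruvate kinase, was at 1385, 1493, 1472 and 1299 TPM against 972, 1018, 989 and 1078 (1.39-fold, adjusted p = 0.00163), Gbe1, the glycogen branching enzyme, rose 2.49-fold (adjusted p = 3.04e-05), and Slc2a1 (GLUT1), the basal glucose transporter, 1.91-fold (adjusted p = 0.000283). Of 24 antioxidant and metallothionein genes 13 rose and 2 fell (62.5% called). Slc39a14, a zinc importer, was at 104, 106, 151 and 88.3 TPM against 43.7, 39, 29.9 and 31.6 (3.12-fold, adjusted p = 2.13e-07), and Nqo1, a target of the antioxidant factor NRF2, was at 12.6, 53.5, 50.1 and 51.6 against 6.03, 13.2, 21 and 14.4 TPM, where dexamethasone replicate 1 lay within the vehicle range (3.08-fold, adjusted p = 0.007). Of 23 genes of the integrated stress response and serine synthesis 9 rose and 2 fell (47.8% called), with 4 rises on log2(TPM + 0.1) without replicate 1. Phgdh, the first enzyme of serine synthesis, was at 78.3, 105, 83.5 and 107 TPM against 36.8, 46.6, 39.5 and 64.6 (1.99-fold, adjusted p = 0.000565), while the stress genes Nupr1 (2.87-fold, adjusted p = 1.81e-06) and Fgf21 (2.26-fold, adjusted p = 0.00854) were lower.

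The shares called among the fatty acid oxidation (30.4%), pyruvate dehydrogenase (30.8%) and creatine kinase (33.3%) genes lay near the 30.3% of all genes. Of 23 fatty acid oxidation genes 4 rose and 3 fell, with 2 rises without vehicle replicate 2, and 2 rises and 5 falls on log2(TPM + 0.1). Besides Cpt1b, Acadl, a dehydrogenase of long-chain fatty acids, rose 1.45-fold (adjusted p = 0.00203), while Echs1, a hydratase of the same pathway, was 1.77-fold lower (adjusted p = 0.000246) and Ucp2, a mitochondrial carrier, 2.62-fold lower (adjusted p = 0.000914). Of 13 genes that make up or control pyruvate dehydrogenase 4 rose and 0 fell, with 2 rises without dexamethasone replicate 2 or vehicle replicate 2 or 4, and Pdk4 was the member with the smallest p. Of 12 creatine kinase, adenylate and myoglobin genes 2 rose and 2 fell, with 4 falls without dexamethasone replicate 1 or with the replicate block. Ampd3, an AMP deaminase, rose 3.6-fold (adjusted p = 6.2e-06), and Ckb, the brain-type creatine kinase, was 1.67-fold lower (adjusted p = 0.00112). Of 9 imprinted growth genes 3 rose and 1 fell (44.4% called), with 5 rises without vehicle replicate 1. Grb10, an adaptor that damps insulin and IGF receptors, was at 2.21, 1.45, 1.71 and 1.77 TPM with dexamethasone against 0.592, 0.167, 0.325 and 0.192 with vehicle (adjusted p = 9.02e-06), with every dexamethasone library above every vehicle library.

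Of 19 circadian clock genes 6 rose and 7 fell (68.4% called against 30.3% of all genes). Per1, a direct receptor target, rose 2.54-fold (adjusted p = 8.89e-07) and Arntl (BMAL1) 1.76-fold (adjusted p = 2.55e-05). Dbp, an output factor of the clock, was at 10.2, 10.7, 8.33 and 12 TPM against 28.1, 37.6, 54.1 and 45.8 (4.02-fold lower, adjusted p = 3.77e-07), and Per3 was 3.57-fold lower (adjusted p = 1.97e-07). Several lists lay below the 30.3% called among all genes. Of 39 oxidative phosphorylation genes 5 rose and 0 fell, with 3 rises without replicate 1 and 2 to 6 as single libraries were left out. Of 34 ribosomal protein genes 1 rose and 0 fell, with 2 rises on log2(TPM + 0.1), and of 20 endoplasmic reticulum chaperones 0 rose and 3 fell, with 0 to 6 falls as single libraries were left out. Of 26 cholesterol and fatty acid synthesis genes 2 rose and 3 fell, with 0 to 2 rises and 1 to 5 falls as single libraries were left out (0 rises without vehicle replicate 3, 1 fall without dexamethasone replicate 2 and 5 falls without dexamethasone replicate 1).

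Markers of other cell types were read for unfused cells or cells that took another fate, since the line is clonal. Of 15 tested fibroblast and tendon markers 9 fell and 1 rose (66.7% called against 30.3% of all genes). Dcn, decorin, was 3.36-fold lower (adjusted p = 0.0008), and Ly6a (Sca-1), the member that rose, 3.08-fold higher (adjusted p = 0.00115). The summed TPM of this list was 5477, 4692, 5041 and 4647 with dexamethasone and 4971, 5090, 3145 and 4984 with vehicle, which overlap, and its part in the fall of the matrix genes was not tested. Of 11 smooth muscle markers 1 rose and 3 fell (36.4% called), with 1 fall without dexamethasone replicate 2, 3 or 4 or vehicle replicate 2 or 4. Of 10 osteoblast and cartilage markers 1 rose and 2 fell (30% called), with 2 and 3 with the replicate block and 4 falls without vehicle replicate 3. Of 21 endothelial, immune, nerve and epithelial markers 8 could be tested, and 2 were at 0 in all 8 libraries. The endothelial markers Pecam1 and Cdh5 were under 0.1 TPM in every library and the leukocyte marker Ptprc reached at most 0.0662. Of the 8 tested 2 rose and 1 fell (37.5% called, and 1 and 0 on log2(TPM + 0.1)). The summed TPM of the whole list was 15.9, 23.1, 17.5 and 26 with dexamethasone and 8.07, 11.6, 8.95 and 15.3 with vehicle, which do not overlap, and its part in the rise of S100a8 and Havcr2 was not tested.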

How the data were processed

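Polyadenylated RNA of 24 C2C12 libraries (6 groups of 4) was measured, and groups were taken from the sample labels. The authors deposited a table of TPM, which sums to 1000000 in each library, and a table of log2 values whose normalization is not given in the sources used here. Salmon, DESeq, kallisto 0.51.1 and GRCm39 appear in the submitters' processing notes with no role or order. Neither table holds counts, so sequencing depth is not known, and intervals for counting error cannot be given. Of the gene identifiers, 48291 of 48544 were matched to a symbol in a reference table of an older build, and promoter windows are from RefSeq (GRCm38.p6), so they were matched by symbol only.

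Differences were tested with limma 3.58.1 (R 4.3.3, trend on) on the deposited log2 values, with 1 mean per group over all 24 libraries, and p-values were adjusted by Benjamini-Hochberg over the 16257 genes that reached a linear value of 10 in at least 4 libraries. Levels and folds are from TPM, and no fold is given where the lower mean is under 0.5. Across 14406 genes the log2 differences in the authors' log2 table had a slope of 0.678 on those of log2(TPM + 0.1), so a log2 difference from that table is smaller than the fold in TPM. The members and gene lists were chosen with earlier results of these data known. Genes were named by a rule: the 12 largest rises and 12 largest falls among genes called with and without replicate 1, up to 4 called and 2 uncalled members of each list, a set of known genes, and the 6 smallest p-values of the change of response in each direction. Other list members, and genes named for a call that a single library moves, were chosen after their values were seen. A few genes that the rule selects are not reported here. A list is described by its counts and median, with no set test. The alternatives were log2(TPM + 0.1), log2(TPM + 1), no filter, a stricter filter, quantile normalization, a replicate block, fits on the 72 h libraries alone and leaving out libraries. The measure of shared signal in replicate 1 was widened after the data were seen. As planned it rested on 3 genes for vehicle replicate 1 (13.7%) and 2 for dexamethasone replicate 1 (17.4%).

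Same-numbered 72 h libraries deviated together from their group means (r = 0.324, 0.117, 0.338 and 0.163 for numbers 1 to 4). The block is treated as a pairing there, although the labels name no shared culture or day. Pairs with unlike numbers had r from −0.256 to 0.162. Dexamethasone replicate 2 had a higher r with vehicle replicate 4 (0.162) than with vehicle replicate 2, so a pairing is not established by these values. Over all 6 groups the lowest r of same-numbered libraries was 0.071, −0.109, −0.249 and −0.14. The median over the 15 pairs of each number was 0.324, 0.095, 0.058 and 0.093. Libraries numbered 1 thus deviated together in the whole series, and their 72 h pair lay at the median. On simulated data of 16257 genes, the 72 h test found 87% of 100 genes changed by 1 on the log2 scale and 59% of those changed by 0.5, and called 7 unchanged genes. The test of the change of response found 64% and 36% and called 5. The simulated noise was independent between libraries, with no shared replicate signal, and only 100 genes were changed by each size. In the data 30.3% of genes were called, so these rates need not hold there.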

Additional observations from a re-analysis of the deposited data

Results flagged for a closer look

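In 20 of 94 groups of 4 libraries looked at for the named genes, 1 library lay far from the other 3. A rate of about 1 in 20 would hold for independent, normally distributed values. These groups come from the same 8 libraries, and many of the genes were chosen for large differences at 72 h. The count therefore cannot be set against that rate. Of the 20 groups, 19 concern replicate 1. Vehicle replicate 1 was the high library for S100a8 (1.87 TPM), Fabp4 (8.14), Serpinb2 (3.48), Serpina3n (25.3), Ifi207 (3.17), Ctla2a (170), Havcr2 (0.965), Slco4a1 (0.319) and Tsc22d3 (108), all genes that rose with dexamethasone. Dexamethasone replicate 1 was the high library for genes that fell, namely Adamts16 (3.4 TPM), Igfbp4 (13.8), Cxcl14 (14.1), Igf1 (24.2), Timp3 (49.4), Insc (2.92), Megf6 (0.312) and Col1a1 (109). It also stood apart for Mstn (0.447) and Myh4 (120), which did not pass the test. The single case outside replicate 1 was Col1a1 in vehicle replicate 3 (113 TPM). Whether these libraries share material was not tested.

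The response to dexamethasone differed between 72 h and 24 h for 1842 genes by limma's test of the difference, and for 2466 without replicate 1. Among the named genes the 72 h response was higher by 2.88 for Prl2c3, 3.27 for Prl2c2, 2.12 for Hmga2, 4.67 for Serpinb2, 2.17 for Lce1g, 2.32 for Havcr2, 2.22 for Slco4a1, 2.77 for Ccnd1 and 2.62 for Mki67, on the log2 scale of the authors' table. It was also higher for Sema7a (2.44), Fosl1 (2.19), Ereg (2.54), Prkg2 (1.56) and Map2k3 (0.53), which are among those with the smallest p. The change was −1.81 for Lgr5, −1.97 for Igf1, −3 for Cilp, −2.04 for Unc93a2, −0.44 for Nr3c1, −0.72 for Fbxo32, −0.94 for Pax7 and −1.34 for Col3a1. The 6 smallest p-values toward lower were those of Gem (−1.69), Pdp1 (−0.95), Erv3 (−3.26), Tmem106b (−0.72), Emb (−1.96) and Stab2 (−1.79). Of all these genes, Fbxo32, Igf1, Lce1g, Nr3c1, Pax7 and Slco4a1 lost the call when certain single libraries were left out, with adjusted p-values of at most 0.0576, 0.0554, 0.0588, 0.0619, 0.0976 and 0.0732.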

How the results depend on the processing

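The 4931 calls at 72 h numbered 3590 with only the 8 libraries of that time and 5433 with the replicate block (5310 also without replicate 1), and lay between these under the other settings with all libraries kept. Of those calls, 0 changed sign under any setting run. With the block, 2233 changes of response, 4621 genes at 24 h, 3630 between vehicle and day 7, and 8215 between dexamethasone and day 7 were called, none over 1.5 times the count without it. Leaving out 1 library gave 3892 to 5472 calls at 72 h, 1241 to 2686 for the change of response and 6608 to 7882 between dexamethasone and day 7. At 24 h the range was 2706 to 4358, with the low counts without dexamethasone replicate 4 (2706) or vehicle replicate 3 (2741). Between vehicle and day 7 it was 1207 to 3245, with 1207 without vehicle replicate 3, 1705 without day 7 replicate 2 and 1868 without day 7 replicate 4. On log2(TPM + 0.1), 64.8% of the calls at 24 h were rises against 51.8%, and 57.5% of those between dexamethasone and day 7 against 49.9%.

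Of 47 named genes followed through 19 settings, 39 were called with all libraries. Foxo1, Foxo3 and Myh8 lost the call under at least 1 setting, and Myh1, Myh2 and Myh7 gained it. The log2 difference of Myog, not called, was 0.02 without dexamethasone replicate 1 and −0.19 at its lowest, and that of Mstn, also not called, was −0.27 without that library, −0.03 and −0.04 without vehicle replicate 3 or 4, and 0.4 at its highest. Members called in 12 lists moved by over 1.5 times under at least 1 of 4 settings, and counts of 1 or 2 members in either direction also moved with single libraries in many lists. With the depth unknown, values near 0 TPM cannot be told from 0.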
